A study of Mus musculus with 4 samples.

Results

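The transcripts described here encode postsynaptic scaffolds, the subunits of calcium/calmodulin-dependent kinase II, and adhesion molecules of the synapse, in injured mouse retinal ganglion cells. The 33 genes were taken as a named list, matched by symbol among the 78334 gene identifiers of the count table. They fall into 9 families: Dlg, Dlgap, Shank and Homer scaffolds, Camk2 subunits, neuroligins with neurexins, Lrrtm, Cadm, and the neuronal pentraxins. All 33 were found, and 30 were among the 11427 genes with enough counts to be compared. Dlgap3 (3 counts with scramble shRNA and 5 with anti-miR132-3p shRNA, both libraries of a group summed), Shank3 (4 and 2 counts) and Homer3 (9 and 9 counts) were too low.

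Both groups were WT mice of both sexes that underwent optic nerve crush (ONC), which severs the axons of ganglion cells, and cells were taken 2 weeks later. At 8 weeks of age, and 2 weeks before the crush, the eyes received 2 µl of an AAV2 vector carrying either an anti-miR132-3p shRNA or a scramble shRNA. Both vectors also expressed mCherry, about 40% of ganglion cells were transduced, and the sorted cells were Thy1-panned and mCherry positive. No uninjured eyes and no untreated eyes were analysed here, so every value is from injured, transduced cells. Each group came from 10 pooled retinas, and about 5000 cells went into each of its 2 libraries.

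Within a group, the 2 libraries agreed within sampling noise, with a chi-square per degree of freedom of 1.01 for scramble and 0.990 for anti-miR132-3p, against 4.39 to 4.41 between groups. Each pair was therefore counted as 1 sample (n = 1 per group), and no difference below has a replicate check. Libraries held 1731199 to 1846637 counts. Ganglion cell markers were detected in both groups, with none of 15 at 0. Their summed level was 3895 CPM (counts scaled to 1000000 per library) with scramble and 3673 CPM with anti-miR132-3p. That sum was 1.06-fold lower (1.04 to 1.09) with anti-miR132-3p, an interval that leaves out 1. Of 14 compared ganglion cell markers 5 lay above 1 and 9 below. Among them, Thy1 (1.47-fold) and Tubb3 (1.42-fold) were above 1, and Stmn2 (0.72-fold) and Nefh (0.74-fold) below. Of 10 marker lists of other cell types, 2 had a higher sum with anti-miR132-3p (amacrine and Müller glia) and 3 a lower one (rod, cone and astrocyte). The sums of the other 5 (bipolar, horizontal, microglia and leukocytes, endothelial and mural, oligodendrocyte) had intervals that included 1. The 14 amacrine markers summed to 3262 and 3266 CPM in the scramble libraries and 4452 and 4470 CPM in the others, with Gad1, Slc32a1 and Tfap2b at 0 counts in all 4. Of 9 compared amacrine markers 5 lay above 1 and 4 below. The 9 Müller glia markers summed to 1222 and 1229 CPM against 1796 and 1783 CPM, but Dkk3 alone supplied 5577 of the 6169 anti-miR132-3p counts, and Glul (0.93-fold) and Rlbp1 (0.62-fold) lay below 1. The 9 rod markers summed to 92.7 and 90.2 CPM against 16.8 and 13.4 CPM, with Gnat1 at 0. The cone sum was 1.61-fold lower (1.23 to 2.10) and the astrocyte sum 1.74-fold lower (1.28 to 2.38). The scramble libraries differed in the cone sum, at 30.5 and 54.2 CPM, against 24.9 and 27.9 CPM with anti-miR132-3p. Only 1 cone marker could be compared, with a log2 fold of -0.0057. These differences stand beside every result below, and their part in the results was not tested. In pools of cells, fewer cells of a type and less RNA per cell cannot be told apart.

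Excitatory synapses are built on a layered protein scaffold under the receptor membrane. Dlg proteins hold receptors and adhesion molecules, Dlgap proteins link Dlg to Shank, and Shank and Homer join this lattice to the actin cytoskeleton and to metabotropic receptors. CaMKII, abundant in this structure, is the kinase that couples calcium entry to lasting change in synaptic strength. Across the cleft, presynaptic neurexins bind postsynaptic neuroligins and Lrrtm proteins, Cadm proteins bind one another, and secreted pentraxins gather AMPA receptors. Ganglion cells receive their excitatory input from bipolar cells on dendrites in the retina, and their own axons form synapses in the brain.

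The microRNA that the shRNA was directed at pairs with transcripts mainly through its seed, bases 2 to 8. Its mature sequence is shown beside that of miR-212-3p, which is made from the same locus, because the seeds are identical. Sequences are from RefSeq on GRCm38.p6, at chr11:75173723-75173744 (plus strand) for miR-132-3p and chr11:75173443-75173464 (plus strand) for miR-212-3p, with the seed in capitals. The third line is the anti-miR132-3p sequence of the vector as the labels give it, complementary to miR-132-3p at all 22 bases, with the stretch that equals the longest seed match in capitals.
mmu-miR-132-3p: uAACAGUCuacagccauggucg
mmu-miR-212-3p: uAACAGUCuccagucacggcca
anti-miR132-3p: cgaccatggctgtaGACTGTTA

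In the longest annotated 3′ UTR, 8 of the 30 compared members (26.7%) held the seed match GACTGTT on the transcript strand, and 2 of those matches were the longer GACTGTTA, which contains it. Among all compared genes with a 3′ UTR, 14.2% held the match and 3.12% the longer form. The members' 3′ UTRs were longer, with a median of 3288 bases against 1348.5 bases, and per 100 kb of 3′ UTR the members held 8.79 matches and all compared genes 8.88. The 9 sites are shown because they are the places where members could pair with this seed. The match is in capitals with 11 bases on each side, and the number after each name is its first base counted from the start of the 3′ UTR.
Dlg1, base 3281: cagataccttaGACTGTTAcatcatttcag
Shank2, base 2048: tggtaccaggtGACTGTTgagcaccacgc
Homer2, base 2658: cccagtcttagGACTGTTgtcgtggcctc
Nlgn1, base 2504: agcctctgaagGACTGTTtaatgccaaac
Nlgn1, base 5352: gaagatgtattGACTGTTttaaagatcag
Nlgn3, base 2141: aatcacagagtGACTGTTAgttaaaaaaga
Lrrtm3, base 1268: cagacagagcaGACTGTTccattgtggat
Cadm3, base 870: ccgagcccctgGACTGTTgcacggcaacc
Nptxr, base 2334: gcacaaagcgaGACTGTTcttagccctgt

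A match of these letters is a description of the sequence and not a measured binding site. Mature microRNA is not counted in polyadenylated RNA, so the level of miR-132-3p itself was not measured here.

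Few of these transcripts differed by 1.5-fold or more. Folds are given as anti-miR132-3p over scramble, or as the inverse where the transcript was lower, from the summed counts scaled by TMM, with an exact 95% interval that covers counting error only. A member was called where its fold was at least 1.5 and the interval left out 1. By that rule 2 of the 30 members (6.67%) were higher with anti-miR132-3p shRNA, against 10.8% of all compared genes, and 0 were lower, against 3.73%. The 2 were Nptx2 and Cadm3. Where libraries of the groups are said below not to overlap, this is a description and not a replicate check. It also held for members whose intervals include 1, such as Dlgap1, Shank2 and Dlg3. With a lower threshold, a log2 fold of 0.32, 7 members were higher and 2 lower, against 16.7% and 10.2% of all compared genes. edgeR's quasi-likelihood test, which here compares the libraries and not the conditions, called 8 members higher (26.7%) and 3 lower (10.0%), against 13.5% and 10.4% of all compared genes. The 8 were Dlg2, Camk2a, Camk2b, Nrxn2, Nrxn3, Lrrtm3, Cadm3 and Nptx2, and the 3 were Nlgn1, Cadm1 and Cadm2. With any 1 library left out edgeR called 0 to 2 members higher and 0 lower, but it then called 0 of all compared genes without either scramble library, and 409 to 427 higher and 196 to 218 lower without an anti-miR132-3p library. Without its low-count filter edgeR called 0 members, with 14 at an unadjusted p under 0.05, and only 1 gene higher and 2 lower in all. The DESeq2 Wald test called 3 members higher and 0 lower, against 4.21% and 2.4% of all compared genes.

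Members are longer and more deeply counted than most genes. Their median exon length was 9198 bases against 4601 bases, and their median count over the 4 libraries was 510 against 242. Folds moved with exon length across all genes, from a median log2 fold of -0.20 for 1458 genes under 2 kb to 0.11 for 292 genes over 16 kb. The members did not follow that order: their median log2 fold was 0.47 for 3 members of 2 to 4 kb, 0.24 for 10 of 4 to 8 kb, 0.029 for 14 of 8 to 16 kb and 0.10 for 3 over 16 kb. The members' median log2 fold was 0.11, against -0.0031 over all compared genes, and 20 of 30 lay above 1. After a correction for GC content and exon length the median was 0.017 against 0.018, and the share above 1 was 50% against 52.4%. The 1.5-fold rule then called 1 member higher (Nptx2) and 0 lower, against 8.24% and 3.43% of all compared genes. edgeR after the correction called 4 higher (Dlg2, Lrrtm3, Cadm3 and Nptx2) and 4 lower (Dlgap4, Camk2g, Nlgn1 and Nrxn2), against 10.5% and 8.45%.

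**Figure D1:**
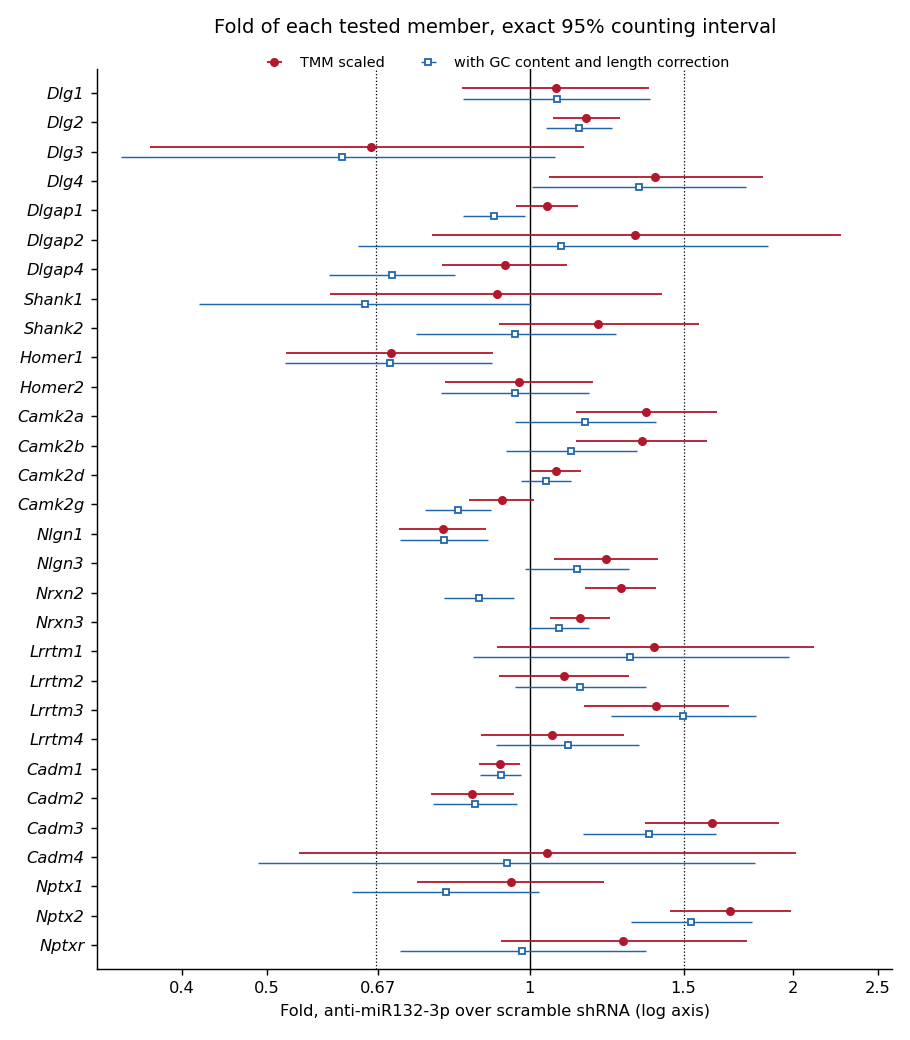
Fold of each of the 30 compared members, anti-miR132-3p over scramble shRNA, on a log axis. Filled circles are TMM-scaled folds and open squares the folds after GC content and length correction, with exact 95% counting intervals; dotted lines mark 1.5-fold in each direction. Among members whose intervals leave out 1, Nptx2 lies past 1.5-fold in both forms and Cadm3 in the first; Dlgap1, Shank2, Nrxn2, Cadm4 and Nptxr move from above 1 to below it.

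Levels can be compared between genes only per length, here as CPM per kb of annotated exon. That length joins the exons of all annotated transcripts of a gene, and ran from 2161 to 22493 bases over the 33 genes. Which transcripts the cells expressed was not measured, so the order of genes given here depends on that length. Cadm1 was the most abundant member in both groups, at 75.04 CPM per kb with scramble and 69.4 with anti-miR132-3p. Camk2g followed at 48.1 and 44.7 CPM per kb. Nptx2 was at 27.6 and 46.9 CPM per kb, the third highest with scramble and above Camk2g with anti-miR132-3p. Nrxn3 was at 26.2 and 29.9 CPM per kb, and Camk2d at 22.3 and 23.9. The lowest were Dlgap3, at 0.184 and 0.321 CPM per kb, and Shank3, at 0.121 and 0.0631, each from at most 5 counts per group. Summed over all 33, the genes took 4083 CPM with scramble and 4329 CPM with anti-miR132-3p, a fold of 1.06 (1.04 to 1.08).

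**Figure D2:**
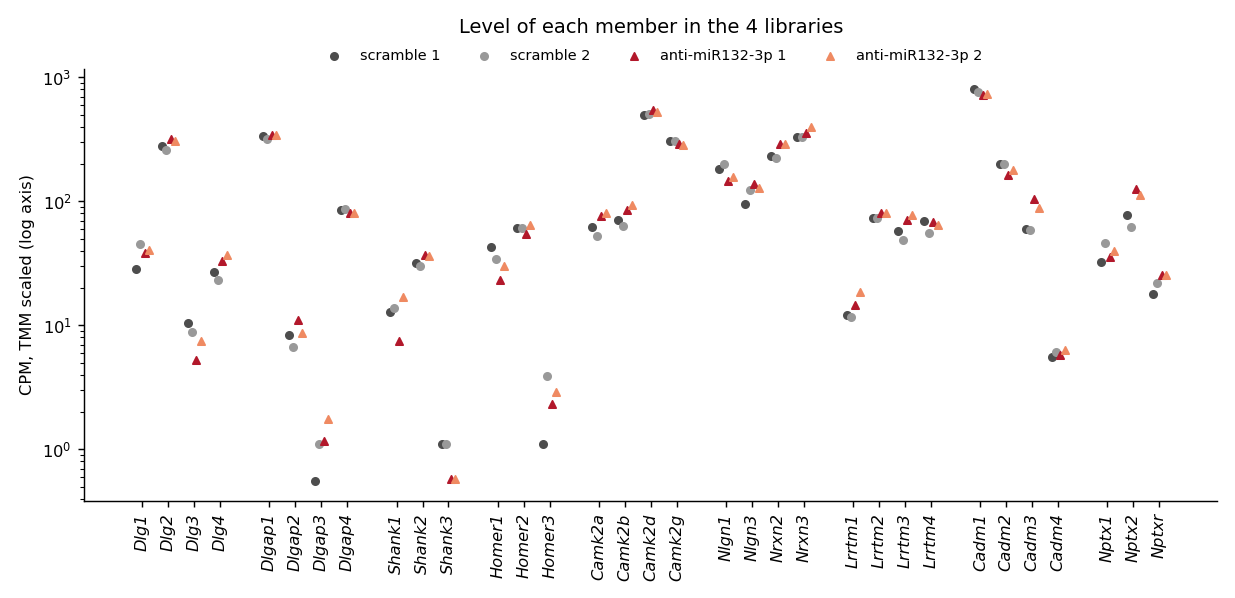
CPM (TMM scaled, log axis) of the 33 genes in each of the 4 libraries, grouped by family; circles are scramble and triangles anti-miR132-3p shRNA. The triangles lie clear of the circles for Nptx2 and Cadm3, and also for members not called by the 1.5-fold rule, such as Dlg2 and Nlgn1. Cadm1, at 716 to 808 CPM, is the highest member in every library.

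Among the Dlg scaffolds, membrane-associated guanylate kinases, Dlg2 (PSD-93) supplied most counts. Dlg2 was at 279 and 261 CPM in the scramble libraries and 320 and 307 CPM in the anti-miR132-3p libraries. Both anti-miR132-3p libraries were above both scramble libraries, with a fold of 1.16 (1.06 to 1.27), short of 1.5. Dlg4 (PSD-95), the best known of the family, was at 25.2 CPM with scramble and 35.1 with anti-miR132-3p, a fold of 1.39 (1.05 to 1.85). Without scramble replicate 1 the fold of Dlg4 was 1.51 and met the rule. Dlg1 (SAP97), which holds an 8-base seed match, had a fold of 1.07 (0.84 to 1.37). Its scramble libraries differed, at 28.3 and 45.4 CPM, and with 1 library left out the fold of Dlg1 ran from 0.87 to 1.39. Dlg3 (SAP102), from 35 counts with scramble and 22 with anti-miR132-3p, was 1.52-fold lower with an interval of 0.87 to 2.72 that includes 1. Dlg2 held 79.0% of the family's counts with scramble and 79.5% with anti-miR132-3p, and the summed family had a fold of 1.15 (1.07 to 1.248).

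The Dlgap proteins, which bind the guanylate kinase domain of Dlg, were led by Dlgap1. Its levels were 339 and 317 CPM with scramble and 346 and 341 CPM with anti-miR132-3p. The anti-miR132-3p libraries were just above the scramble libraries, and the fold was 1.05 (0.96 to 1.13), an interval that includes 1. After the GC content and length correction Dlgap1 turned to 1.10-fold lower (1.01 to 1.19). Dlgap4 was at 86.2 and 80.6 CPM, 1.07-fold lower (0.91 to 1.26), and after the correction 1.44-fold lower (1.22 to 1.70). Dlgap2, from 27 and 34 counts, had a fold of 1.32 (0.77 to 2.27). Dlgap1 held 77.6% and 78.9% of the family's counts.

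Shank proteins, the master scaffolds that cross-link Dlgap and Homer, were scarce. Shank2 was at 31.6 and 29.9 CPM with scramble and 37.1 and 36.6 CPM with anti-miR132-3p. The groups did not overlap, but the fold of 1.20 had an interval of 0.92 to 1.56 that includes 1. Shank1 was at 12.8 and 13.8 CPM with scramble and at 7.54 and 16.8 CPM with anti-miR132-3p. The anti-miR132-3p libraries thus lay on either side of both scramble libraries, and the summed fold was 0.92 (0.59 to 1.42).

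Homer proteins tether metabotropic glutamate receptors to Shank, and Homer1 also yields a short activity-induced form that breaks these tethers. The counts do not separate its forms. Homer2 had the most counts and was at 61.6 and 61.4 CPM with scramble and 55.1 and 64.4 CPM with anti-miR132-3p. These overlap, with a fold of 0.97 (0.80 to 1.18). Homer1 was at 42.7 and 34.3 CPM with scramble and 23.2 and 30.2 CPM with anti-miR132-3p. Both anti-miR132-3p libraries were below both scramble libraries, and Homer1 was 1.44-fold lower (1.101 to 1.899), under the 1.5-fold rule. Leaving out 1 library at a time gave 1.28 to 1.66-fold lower, and Homer1 met the rule without scramble replicate 2 and without anti-miR132-3p replicate 2. Its share of Homer1 plus Homer2 was 38.5% (33.5 to 43.7) and 30.9% (25.7 to 36.5), intervals that overlap. The summed family was 1.15-fold lower (0.99 to 1.34).

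Of the CaMKII subunits, alpha and beta dominate in forebrain neurons, while delta and gamma are widely expressed. In these cells delta had the most counts, with Camk2d at 496 and 507 CPM in the scramble libraries and 544 and 531 CPM in the anti-miR132-3p libraries. The groups did not overlap, with a fold of 1.07 (1.004 to 1.14). Per annotated exon length gamma was higher, at 48.1 and 44.7 CPM per kb against 22.3 and 23.9 for delta. That length was 6401 bases for Camk2g and 22493 bases for Camk2d, and the reversed order rests on it. Camk2g, the gamma subunit, was at 308 CPM in both scramble libraries and 288 and 284 CPM with anti-miR132-3p, 1.08-fold lower (0.99 to 1.17), and 1.21-fold lower (1.11 to 1.32) after the GC content and length correction. Camk2a, the alpha subunit, was at 62.7 and 52.6 CPM with scramble and 76.5 and 80.1 CPM with anti-miR132-3p. Its fold was 1.36 (1.13 to 1.64). Camk2b, the beta subunit, was at 70.5 and 63.1 CPM against 85.8 and 93.5 CPM, a fold of 1.34 (1.13 to 1.60). For both subunits every anti-miR132-3p library was above every scramble library, though neither reached 1.5-fold. After the correction the folds were 1.16 (0.96 to 1.39) and 1.12 (0.94 to 1.33), intervals that include 1, and edgeR called neither.

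Alpha and beta together held the smaller part of the Camk2 counts in both groups. Per length, Camk2a was at 7.72 and 10.5 CPM per kb and Camk2b at 7.32 and 9.82, each below Camk2d and Camk2g. Camk2a was 6.17% of the Camk2 counts with scramble and 7.90% with anti-miR132-3p, and Camk2b was 7.15% and 9.04%. The share of Camk2g was 32.98% and 28.8%, and that of Camk2d 53.7% and 54.2%. Of the counts of Camk2b plus Camk2g, Camk2b held 17.8% (15.8 to 20.0) with scramble and 23.9% (21.6 to 26.3) with anti-miR132-3p. The summed family had a fold of 1.06 (1.01 to 1.11).

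**Figure D3:**
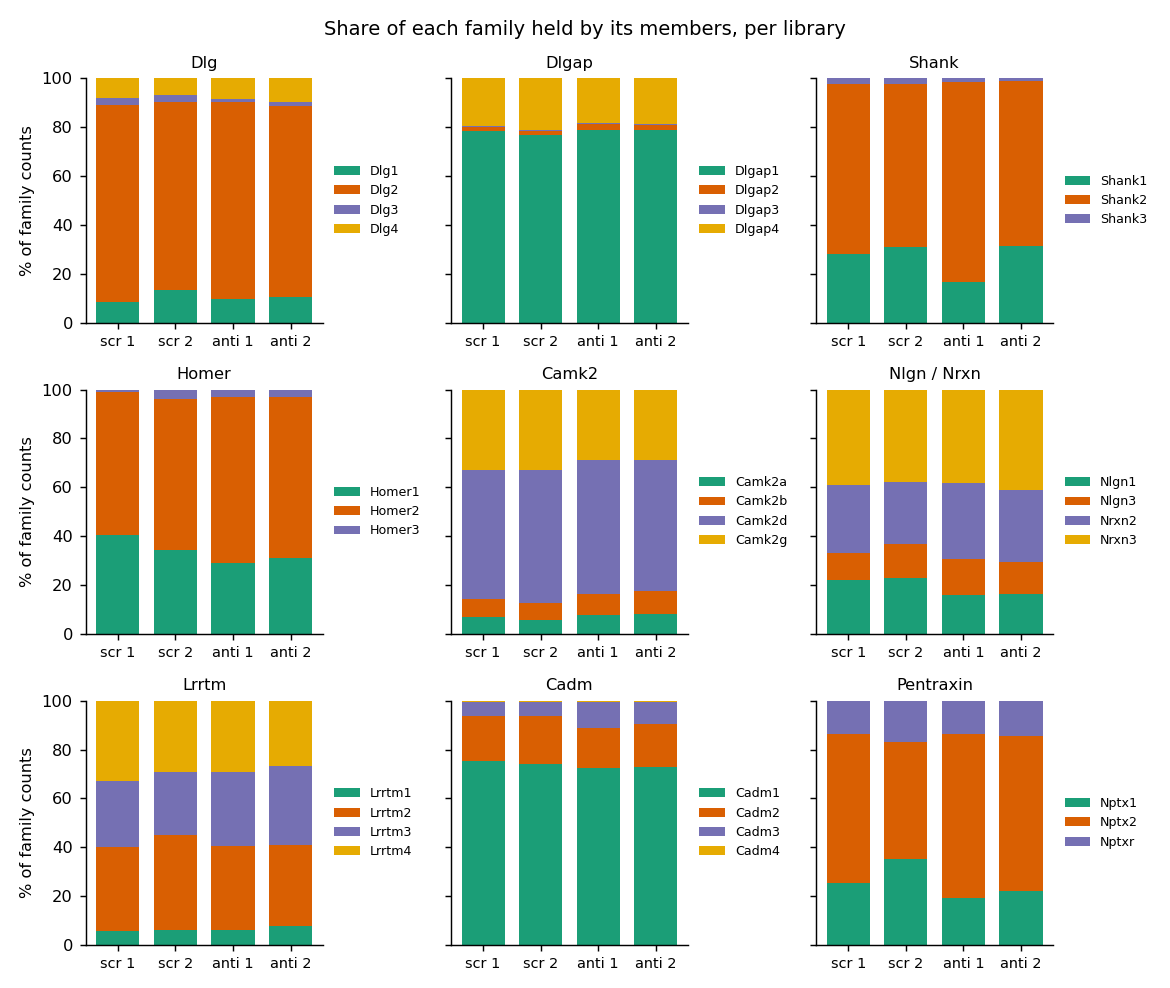
Percentage of each family's counts held by its members in each of the 4 libraries (scr, scramble; anti, anti-miR132-3p shRNA), one panel per family. Counts are not divided by length, so a panel shows how a share differs between libraries; the Nptx2 share of the pentraxins and the Cadm3 share of the Cadm family are larger in both anti-miR132-3p libraries.

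The neurexin and neuroligin members did not move in one direction. Nrxn3 had the most counts of the 4, at 328 and 333 CPM with scramble and 354 and 400 CPM with anti-miR132-3p. The groups did not overlap, with a fold of 1.14 (1.05 to 1.24). Nrxn2, at 228 and 290 CPM, had a fold of 1.27 (1.16 to 1.40), which turned to 1.14-fold lower (1.04 to 1.26) after the GC content and length correction, so its direction depends on that step. The 4 genes summed had a fold of 1.11 (1.06 to 1.17).

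The 2 neuroligins differed in opposite directions, each by less than 1.5-fold. Nlgn1, the neuroligin of excitatory synapses, was at 183 and 199 CPM with scramble and 146 and 158 CPM with anti-miR132-3p. Both anti-miR132-3p libraries were below both scramble libraries, 1.26-fold lower (1.12 to 1.41), and 1.254-fold lower after the correction. Nlgn3, found at excitatory and inhibitory synapses, was at 95.4 and 123 CPM with scramble and 138 and 129 CPM with anti-miR132-3p, a fold of 1.22 (1.07 to 1.40). One scramble library was close to the anti-miR132-3p libraries, and the fold was 1.09 to 1.40 with 1 library left out. After the correction it was 1.13 (0.99 to 1.30), an interval that includes 1. Nlgn1 held 65.7% and 61.9% of the counts of both genes in the scramble libraries and 51.3% and 55.2% in the anti-miR132-3p libraries. Pooled, its share was 63.7% (60.7 to 66.5) and 53.3% (50.1 to 56.4), and these intervals do not overlap. Both genes hold seed matches, 2 of the shorter form in Nlgn1 and 1 of the longer in Nlgn3. In the annotation used, 41.2% of the exon bases of Nlgn3 are shared with Gm21986 on the same strand, which had 0 counts, and 9.16% of those of Nlgn1 with an antisense gene that had 2 counts in 1 library and 0 in the rest.

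The Lrrtm genes encode leucine-rich repeat proteins of the postsynaptic membrane that bind neurexins or heparan sulfate proteoglycans. Lrrtm2 had the most counts, at 73.8 and 73.0 CPM with scramble and 80.6 and 80.1 CPM with anti-miR132-3p, a fold of 1.09 (0.92 to 1.30). Lrrtm3 was at 57.7 and 48.7 CPM with scramble and 70.7 and 77.8 CPM with anti-miR132-3p. Both anti-miR132-3p libraries were above both scramble libraries, with a fold of 1.40 (1.15 to 1.69) that reached 1.53 without scramble replicate 1. After the GC content and length correction the fold was 1.498, just short of the rule. Lrrtm1, from 43 and 57 counts, had a fold of 1.39 (0.92 to 2.11), and Lrrtm4 one of 1.06 (0.88 to 1.28). All 4 folds lay above 1, and the summed family had a fold of 1.18 (1.07 to 1.31).

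Cadm proteins, immunoglobulin-domain adhesion molecules also known as SynCAMs and nectin-like proteins, held both the most abundant member and one of the called members. Cadm1 was at 808 and 759 CPM with scramble and 716 and 732 CPM with anti-miR132-3p, 1.08-fold lower (1.02 to 1.14). Cadm2 was at 199 and 201 CPM against 164 and 180 CPM, 1.16-fold lower (1.04 to 1.30). For both genes the anti-miR132-3p libraries lay below the scramble libraries, by far less than 1.5-fold. The summed family was 1.05-fold lower (1.00 to 1.10).

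Cadm3 rose. It was at 59.9 and 58.6 CPM in the scramble libraries and 104 and 87.7 CPM in the anti-miR132-3p libraries. The groups did not overlap, and the fold was 1.61 (1.36 to 1.93). Without anti-miR132-3p replicate 1 its log2 fold was 0.56, and after the GC content and length correction the fold was 1.37 (1.15 to 1.64), so in each case it was below 1.5-fold. Cadm3 held 22.9% (20.2 to 25.7) of the counts of Cadm3 plus Cadm2 with scramble and 35.8% (32.7 to 39.0) with anti-miR132-3p. In the annotation used, 4.98% of its exon bases are shared with Ackr1 on the same strand, which was at 60 and 58 counts with scramble and 64 and 65 with anti-miR132-3p. Cadm4, from 21 counts in each group, had a fold of 1.05 (0.54 to 2.02).

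Nptx2 (neuronal activity-regulated pentraxin, Narp), a secreted protein that clusters AMPA receptors and is known to follow neuronal activity, rose by the largest fold of the 30 compared members. It was at 78.2 and 62.0 CPM in the scramble libraries and 125 and 113 CPM in the anti-miR132-3p libraries. Every anti-miR132-3p library was above every scramble library, and the fold was 1.70 (1.45 to 1.99). With 1 library left out at a time the fold was 1.52 to 1.92, and after the GC content and length correction it was 1.53 (1.31 to 1.80). The 3′ UTR of Nptx2 held no GACTGTT.

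The other pentraxins did not meet the rule. Nptx1, its secreted partner, was at 32.7 and 45.9 CPM with scramble and 35.4 and 39.5 CPM with anti-miR132-3p, values that overlap, with a fold of 0.95 (0.74 to 1.22). Nptxr, the membrane-anchored pentraxin, was at 17.8 and 22.1 CPM against 25.5 CPM in both anti-miR132-3p libraries, a fold of 1.28 (0.93 to 1.77). Nptx2 held 64.1% (59.1 to 68.8) of the counts of Nptx1 plus Nptx2 with scramble and 76.1% (72.2 to 79.6) with anti-miR132-3p. The scramble libraries differed in that share, at 70.5% and 57.4%, against 78.0% and 74.1% in the anti-miR132-3p libraries. The summed family had a fold of 1.41 (1.245 to 1.59), the highest of the 9 summed families. These sums were not corrected for GC content and length. After that correction Nptx1 had a fold of 0.80 (0.63 to 1.02) and Nptxr one of 0.98 (0.71 to 1.36).

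Sorted by the seed matches shown above, the 8 members that held one were spread on both sides of 1. Cadm3 (1.61), Lrrtm3 (1.40), Nptxr (1.28), Nlgn3 (1.22), Shank2 (1.20) and Dlg1 (1.07) had folds above 1, while Homer2 (0.97) and Nlgn1 (0.80), the gene with 2 matches, were below it. The median log2 fold was 0.28 for the compared members with a match and 0.09 for those without. Over all compared genes these medians were 0.0056 and 0.00083. After the GC content and length correction 4 of the 8 lay above 1, with Shank2 (0.96) and Nptxr (0.98) now below it, and the members' medians were 0.036 with a match and -0.012 without. Over all compared genes the corrected medians were 0.0017 with a match and 0.014 without, the other order. The intervals of Dlg1, Shank2, Homer2 and Nptxr included 1.

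Genes of the same pathways outside the 33 were described in the same way. Of 48 other postsynaptic density genes 42 could be compared, and by the 1.5-fold rule 5 were higher and 0 lower, where 10.8% and 3.73% of all compared genes were. After the correction 2 were higher and 1 lower, against 8.24% and 3.43% of all compared genes. Their median log2 fold was 0.21, and 0.07 after the correction. The largest fold was that of Arc, an immediate early gene whose product removes AMPA receptors from the membrane, at 11 and 26 counts and 2.48-fold (1.18 to 5.55). At 3.05 CPM with scramble, Arc needed its anti-miR132-3p counts to pass the low-count filter. Its rank in this list is therefore not independent of the difference. Cnksr2, a scaffold of the Ras pathway, went from 34.6 to 61.2 CPM, 1.77-fold (1.41 to 2.22). edgeR called 10 of these genes higher and 1 lower, against 13.5% and 10.4% of all compared genes.

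Of 50 other synaptic adhesion genes 40 could be compared. By the rule 6 were higher and 0 lower, against 10.8% and 3.73% of all compared genes. After the correction 6 were higher and 0 lower, against 8.24% and 3.43%. The median log2 fold was 0.22, and 0.05 after the correction. C1ql1 and C1ql2 were at 0 counts in all libraries. The largest folds were those of Lrfn2 (SALM1), a Dlg-binding adhesion protein, at 11 and 30 counts and 2.86-fold (1.39 to 6.32), and of Igsf21, a neurexin ligand, at 18 and 47 counts and 2.73-fold (1.56 to 5.002). At 3.05 and 4.99 CPM with scramble, both needed their anti-miR132-3p counts to pass the low-count filter. Their ranks in this list are therefore not independent of the difference. edgeR called 13 higher and 4 lower, against 13.5% and 10.4% of all compared genes.

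Of 23 genes of calmodulin and its kinases and binding proteins 22 could be compared, and these went both ways, with a median log2 fold of -0.01. The 1.5-fold rule called 5 higher and 3 lower, against 10.8% and 3.73% of all compared genes. After the correction 4 were higher and 2 lower, against 8.24% and 3.43%. edgeR called 4 higher and 7 lower, against 13.5% and 10.4%. Camkk1, a kinase that activates CaM kinases, had 39 and 88 counts, 2.36-fold higher (1.60 to 3.54). Calm3, one of the genes for calmodulin, went from 344 to 771 CPM, 2.24-fold (2.10 to 2.40). Camk2n1, an inhibitor of CaMKII, was at 234 CPM with scramble and 152 CPM with anti-miR132-3p, 1.54-fold lower (1.38 to 1.72) and 1.74-fold lower after the correction. Pcp4, a small calmodulin-binding protein, was 1.57-fold lower (1.21 to 2.03), and 1.20-fold lower after the correction, under the rule.

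**Figure D4:**
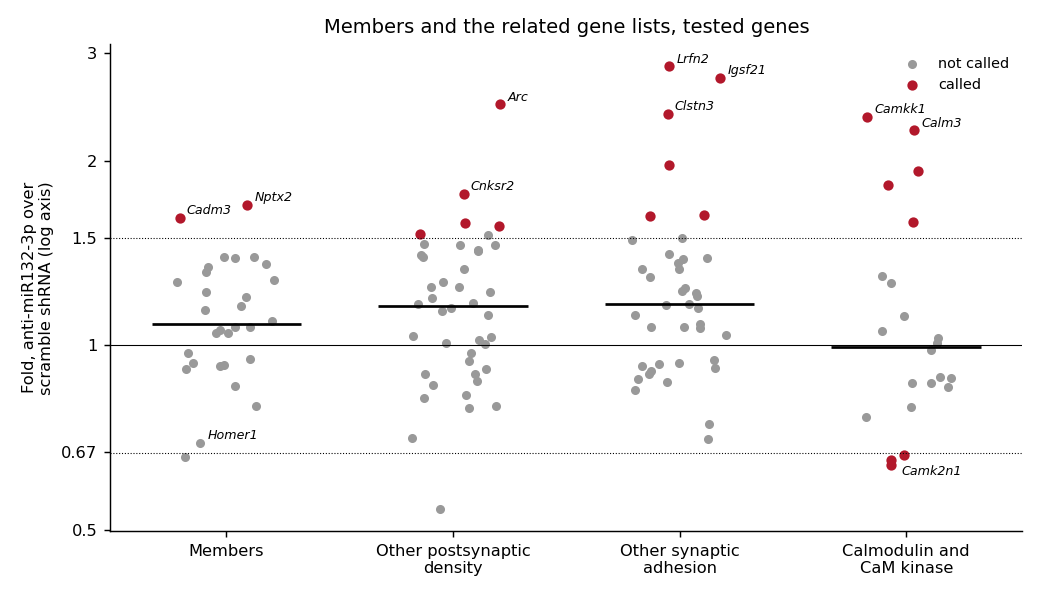
Fold (anti-miR132-3p over scramble shRNA, log axis) of the 30 compared members and of the compared genes of the 3 related lists; each point is a gene, red where called by the 1.5-fold rule, and black bars are medians. In these TMM-scaled folds called genes lie only above 1 in the members and in the postsynaptic density and adhesion lists, and on both sides in the calmodulin list. Of all compared genes 10.8% were called higher and 3.73% lower. Clstn3 is labelled among the adhesion genes after its value was seen.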

How the data were processed

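Polyadenylated RNA of sorted ganglion cells was sequenced in paired reads of 100 bases. The authors deposited unnormalized counts, whole numbers for each gene and library. Per the submitters' processing notes, which give no roles, the build was GRCm39 and the tools were HISAT2 2.2.1, Trimmomatic 0.39, Cuffdiff, Cuffnorm, Cufflinks and SAMtools 1.10. How reads were counted, with which annotation and strand, was not given in the sources used here, and overlapping genes cannot be told apart. Of the 33 genes, 16 share exon bases with another gene, 5 of them over 5%. The mCherry columns were read as scramble by exclusion, the others being named for miR132. Both vectors carry mCherry, so all directions given rest on that reading.

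Symbols were found for 51486 identifiers, and those without one held 0.433% to 0.437% of the counts. Genes passed filterByExpr of edgeR 4.0.16 (98.6% of counts kept) and were scaled by TMM in R 4.3.3. Because library pairs differed within sampling noise, folds use summed counts with exact Clopper-Pearson 95% intervals. These cover counting error only, and nothing in the labels says that libraries came from separate animals. edgeR's glmQLFTest used Benjamini-Hochberg adjusted p-values under 0.05 over all compared genes. Alternatives were DESeq2 1.42.0, limma 3.58.1 (voom), other scalings and filters, the replicate number as a block, libraries left out, and a spline correction (4 degrees of freedom) for GC content and exon length, available for 98.7% of compared genes. The computations were tested on simulated data. Exon lengths and 3′ UTRs come from GENCODE M21, an older build matched by gene identifier.

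The members and lists were chosen with earlier results of these data known. Values per library are given for called members and the member with most counts in each family, and for others where their libraries or shares are discussed, chosen after their values were seen. From each related list the called genes with the 2 largest folds in each direction are named.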

Additional observations from a re-analysis of the deposited data

How the results depend on the processing

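By the 1.5-fold rule 2 members were called higher and 0 lower, and these counts were the same with DESeq2 size factors, with library totals, without the low-count filter and with a filter at 5 CPM. The GC content and length correction left 1 higher, against 8.24% of all compared genes. A log2 fold threshold of 0.32 gave 7 higher and 2 lower, against 16.7% and 10.2% of all compared genes. A fold of 2 gave 0 higher. With 1 library left out, 1 to 4 were higher and 0 to 1 lower. edgeR called 8 higher and 3 lower with all libraries. With 1 library left out it called 0 to 2 higher and 0 lower, with 7 to 10 members at an unadjusted p under 0.05. All compared genes then had 0 calls without either scramble library, and 427 and 409 higher and 218 and 196 lower without an anti-miR132-3p library. A group then has 1 library, assumed to vary like the other group. Without the low-count filter edgeR called 0 higher and 0 lower, with 14 members at an unadjusted p under 0.05 against 15 with the filter, and called 1 and 2 of all genes. With library totals edgeR called 1 lower (888 of all compared genes), and with the correction 4 higher (1201 of all compared genes). The DESeq2 Wald test called 3 higher and 0 lower (481 and 274 of all compared genes), while limma-voom called 8 and 3 (1471 and 1136). The members' median log2 fold was 0.1149, 0.01653 after the correction, and 0.1230 to 0.1817 with 1 library left out. The Shank2 share of the Shank counts with anti-miR132-3p ranged from 67.74% to 82.05%, and the Nptx2 share of the pentraxins with scramble from 47.66% to 60.78%, with 1 library left out. The cause of these changes was not tested.

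With the replicate block edgeR called 9 members higher and 4 lower, and 1740 and 1437 of all compared genes. The labels share only a number between groups: deviations of same-numbered libraries from their group mean had a Pearson r of 0.0126 over 11427 genes.

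Depth limited the scarce members: Dlg3, with 35 and 22 counts, was 1.52-fold lower with an interval that includes 1, and Dlgap3, Shank3 and Homer3 could not be compared.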
